A study of Mus musculus with 40 samples.

Results

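The data are 81852 genomic regions of Runx1-het haematopoietic stem and progenitor cells, classed by whether they carried a peak of H3K27ac, of H3K4me1 or of both. They were found by merging the 31978 H3K27ac and 72682 H3K4me1 peaks of that genotype wherever 2 peaks shared at least 1 bp, and each region was called a promoter if any part of it lay within 1 kb of a protein-coding transcription start site and distal otherwise. Merging all 12 peak lists of the series, 6 genotypes by 2 marks, gives 184295 regions. Runx1-het is the genotype label of mice whose source names join Runxf and Vav. The labels spell out no allele, transgene or promoter behind these names. The other genotypes were Flt3-ITD/Runx1-het, Flt3-ITD, NUP98-HOXD13, Flt3-ITD/NUP98-HOXD13 and wild type, all at 21 days of age, and haematopoietic stem and progenitor cells were sorted and then fixed. Each mark was mapped in 3 Runx1-het samples by ChIPmentation, an immunoprecipitation of chromatin in which Tn5 transposase adds the sequencing adapters. The samples of a group were deposited as 1 pooled peak list, so no value per mouse, no SD and no p-value can be given. All 95% intervals are Wilson intervals that cover counting error only.

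H3K27ac is acetylation of histone H3 that marks active promoters and enhancers, and H3K4me1 is monomethylation that marks enhancers whether or not they are active. A distal element with H3K4me1 but no H3K27ac is usually called primed or poised, and one with both is called active. RUNX1 is a DNA-binding transcription factor that works with its partner CBFB, opens the blood programme in the embryo, and in the adult is needed for platelet and lymphocyte production.

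Most of the Runx1-het regions were distal and carried H3K4me1 alone. The distal regions numbered 48695 with H3K4me1 only, 12426 with both marks and 9314 with H3K27ac only. Promoters had the opposite order, with 5441 H3K27ac-only regions, 3725 with both marks and 2251 with H3K4me1 only. H3K4me1 was thus present at 40.6% of promoter H3K27ac regions (95% interval 39.6 to 41.6%) and at 57.2% of distal ones (56.5 to 57.8%). In the other direction, H3K27ac was present at 20.3% of distal H3K4me1 regions (20.0 to 20.7%). Of the H3K27ac-only regions 36.9% were promoters, of those with both marks 23.1%, and of the H3K4me1-only regions 4.42%.

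**Figure D1:**
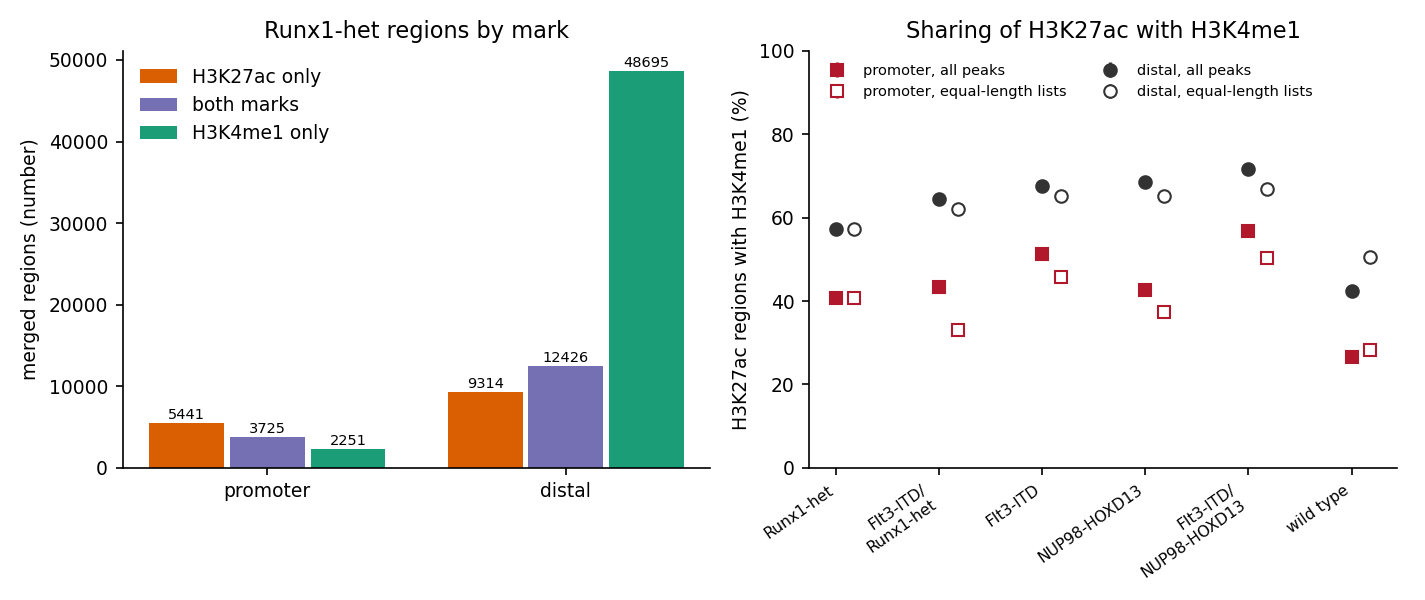
Left, number of Runx1-het merged regions by mark (bars) at promoters and distal sites. Right, percentage of H3K27ac regions that held H3K4me1 in the 6 genotypes, with all peaks (filled) and with every list shortened to the shortest list of its mark (open); 95% Wilson intervals are smaller than the symbols. Distal H3K4me1-only regions, at 48695, outnumber every other class, and Runx1-het distal sharing (57.2%) lies above wild type (42.5%) and below the other mutants.

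Promoter sequence differed between the classes. The sequences below, from RefSeq on GRCm38.p6, are windows of 300 bases across a start site, mostly upstream of it, 5′ to 3′, with CpG dinucleotides in capitals. They show the strongest H3K27ac-only promoter (Usp38, a deubiquitinase gene), the strongest promoter with both marks (Unk, an RNA-binding protein gene), an H3K4me1-only promoter of a megakaryocyte gene (Pf4, platelet factor 4) and the upstream and proximal promoters of Runx1.
Usp38: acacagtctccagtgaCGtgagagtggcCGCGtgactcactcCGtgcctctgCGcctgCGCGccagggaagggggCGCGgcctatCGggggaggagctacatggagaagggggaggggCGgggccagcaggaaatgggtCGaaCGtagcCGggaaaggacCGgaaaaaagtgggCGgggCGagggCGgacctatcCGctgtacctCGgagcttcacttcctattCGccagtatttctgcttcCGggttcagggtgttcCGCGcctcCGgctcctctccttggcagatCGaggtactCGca
Unk: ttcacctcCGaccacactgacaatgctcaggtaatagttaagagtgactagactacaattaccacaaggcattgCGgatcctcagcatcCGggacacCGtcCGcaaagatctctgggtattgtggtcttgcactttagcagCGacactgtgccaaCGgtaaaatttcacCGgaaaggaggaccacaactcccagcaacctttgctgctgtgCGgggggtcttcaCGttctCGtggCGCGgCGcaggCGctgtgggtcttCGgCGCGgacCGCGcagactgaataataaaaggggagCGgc
Pf4: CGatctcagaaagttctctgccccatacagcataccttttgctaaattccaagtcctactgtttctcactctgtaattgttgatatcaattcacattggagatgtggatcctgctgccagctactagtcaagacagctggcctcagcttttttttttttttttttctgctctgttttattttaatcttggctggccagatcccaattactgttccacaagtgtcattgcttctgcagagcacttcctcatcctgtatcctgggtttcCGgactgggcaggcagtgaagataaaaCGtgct
Runx1 upstream: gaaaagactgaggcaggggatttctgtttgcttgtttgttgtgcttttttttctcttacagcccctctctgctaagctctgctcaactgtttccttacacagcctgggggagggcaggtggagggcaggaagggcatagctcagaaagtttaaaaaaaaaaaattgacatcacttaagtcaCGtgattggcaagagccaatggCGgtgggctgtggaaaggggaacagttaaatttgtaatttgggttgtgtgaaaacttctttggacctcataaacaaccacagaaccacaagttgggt
Runx1 proximal: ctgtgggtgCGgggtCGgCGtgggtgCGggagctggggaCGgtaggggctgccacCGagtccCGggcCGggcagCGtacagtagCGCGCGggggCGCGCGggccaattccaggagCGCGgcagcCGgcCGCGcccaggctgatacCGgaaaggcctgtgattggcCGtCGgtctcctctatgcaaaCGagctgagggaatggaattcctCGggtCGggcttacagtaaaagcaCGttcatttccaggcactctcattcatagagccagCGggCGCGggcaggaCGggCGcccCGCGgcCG
The Usp38 window (chr8:81014857-81015156, minus strand) holds 27 CpG dinucleotides and the Unk window (chr11:116030066-116030365, plus strand) holds 21. The Pf4 window (chr5:90772185-90772484, plus strand) holds 3. The upstream Runx1 window (chr16:92826025-92826324, minus strand) holds 2, although the promoter carried H3K27ac. The proximal one (chr16:92697280-92697579, minus strand) holds 35, although its promoter was classed as H3K4me1 only. The H3K4me1 region that set this class lay outside the printed window. Classed by peaks within 1 kb of the start site, the Runx1 pair therefore runs against the order of the classes described next.

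Over 20143 RefSeq promoter windows, matched by gene symbol to 16515 genes, the observed to expected CpG ratio had a median of 0.81 at H3K27ac-only promoters, 0.79 at promoters with both marks, 0.51 at H3K4me1-only promoters and 0.32 at promoters with neither, against 0.59 for all. The median GC content ran in the same order, at 62.0%, 60.3%, 55.3% and 53.0%. A ratio of at least 0.6, a common limit for a CpG island, was met by 80.9% of H3K27ac-only windows, 73.7% of those with both marks and 43.1% of H3K4me1-only windows. Motif letters were searched on both strands. The RUNX motif TGTGGT was found in 11.5% of H3K27ac-only, 13.6% of both-mark and 15.7% of H3K4me1-only windows, against 16.4% of windows with neither mark and 14.7% of all windows. It occurs 4 times in the Unk window, 2 times in the upstream Runx1 window and not in the Pf4, Usp38 or proximal Runx1 windows. The ETS motif of the PU.1 type, AGGAAGT, was in 12.1% of both-mark and 11.5% of H3K4me1-only windows, against 8.46% of H3K27ac-only windows, 8.55% of windows with neither and 9.16% of all. The CpG-bearing ETS motif CCGGAAG was in 21.8% of H3K27ac-only, 23.6% of both-mark and 10.2% of H3K4me1-only windows, against 4.26% of windows with neither and 11.9% of all. The GATA motif AGATAA was in 5.25%, 6.38% and 11.2% of the H3K27ac-only, both-mark and H3K4me1-only windows, against 12.1% of windows with neither and 9.45% of all. These shares move with base composition, whose part in them was not tested. Distal sequences were not analysed here.

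The class of a region went with its width and strength. Fold enrichment is the authors' own value for each peak over control, and it is compared here only within a list. Promoter regions with both marks had a median width of 2264 bp, against 1098 bp with H3K27ac only and 398 bp with H3K4me1 only. Distal regions with both marks had a median width of 1147 bp, against 494 bp with H3K27ac only and 387 bp with H3K4me1 only. A both-mark region joins peaks of both lists, at promoters with means of 1.07 H3K27ac and 1.35 H3K4me1 peaks. Its greater width is therefore set in part by the merging. Within the H3K27ac list the median fold enrichment at promoters was 9.91 in both-mark regions and 6.70 in H3K27ac-only regions, and at distal sites it was 5.03 and 4.07. Within the H3K4me1 list the distal median was 5.21 in both-mark regions and 4.23 in H3K4me1-only regions. Across regions with both marks the 2 fold enrichments were only weakly related. Spearman rho was 0.11 over 3725 promoter regions and 0.22 over 12426 distal regions. The labels name an input chromatin sample without a genotype, and do not say whether the 2 marks were mapped on the same chromatin.

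When distal H3K27ac regions were divided into 5 equal groups by fold enrichment, the share that also held H3K4me1 was 38.6% in the lowest group (37.1 to 40.0%) and 78.7% in the highest (77.5 to 79.9%). Distal H3K4me1 regions held H3K27ac in 9.04% of the lowest group and 43.6% of the highest. Promoter H3K27ac regions held H3K4me1 in 25.2% of the lowest group and 60.8% of the highest. Strong H3K27ac regions were also wide, with a Spearman rho of 0.70 at promoters and 0.58 at distal sites between fold enrichment and width in both-mark regions, and the part of width in these shares was not tested. A second measure took each peak by its summit, a single base, with the peaks divided into 5 groups in the same way. The promoter summits are not the same set as the promoter regions. Of 8321 promoter H3K27ac summits 587 lay inside an H3K4me1 peak, whereas promoter both-mark regions alone held 878 such summits. Distal H3K27ac summits lay inside an H3K4me1 peak in 27.8% of the lowest group, 51.8% of the fourth group and 49.7% of the highest. At promoters the summit gave the opposite order, 10.3% in the lowest group (8.90 to 11.8%) and 4.03% in the highest (3.18 to 5.08%). The stronger promoter regions thus met H3K4me1 more often over their whole length, and the stronger promoter peaks less often at their summit, in sets that are not the same.

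**Figure D2:**
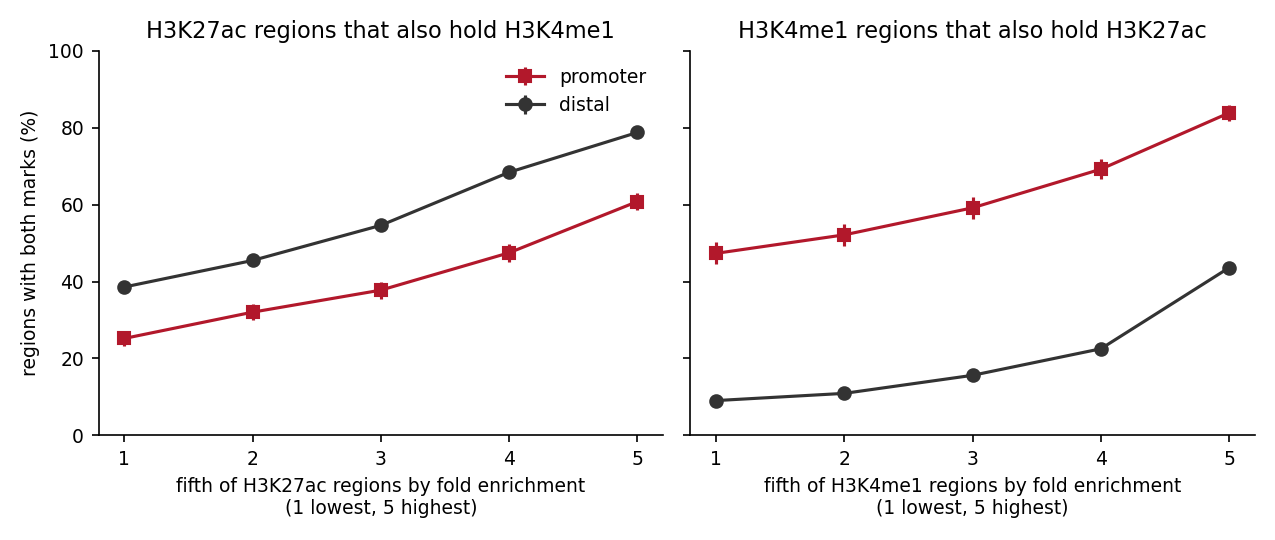
Percentage of Runx1-het regions with both marks (y axis) in 5 equal groups of H3K27ac regions (left) or H3K4me1 regions (right) by the authors' fold enrichment (x axis), at promoters (squares) and distal sites (circles), with 95% Wilson intervals. The share is higher in each stronger group, reaching 78.7% for distal H3K27ac regions and 43.6% for distal H3K4me1 regions.

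The marks were laid out differently at promoters and distal sites. In distal regions with both marks the median distance between the strongest summits of the 2 marks was 241 bp, and the H3K27ac summit lay inside an H3K4me1 peak in 70.1% of 12426 regions. In promoter regions with both marks that distance was 814 bp, and the H3K27ac summit lay inside an H3K4me1 peak in 23.6% of 3725 regions. Around the 16328 start sites with H3K27ac within 1 kb, an H3K4me1 peak covered 1.34% at the start site itself, 12.2% at 1.3 kb upstream and 24.0% at 1.4 kb downstream. H3K27ac peaks covered 80.0% of these start sites at the start and 31.2% at 1.4 kb downstream. The 5836 start sites with both marks within 1 kb showed the same gap, with H3K4me1 at 3.74% of starts, and their maximum of 51.7% at 1 kb downstream is set in part by the 1 kb limit that chose them.

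**Figure D3:**
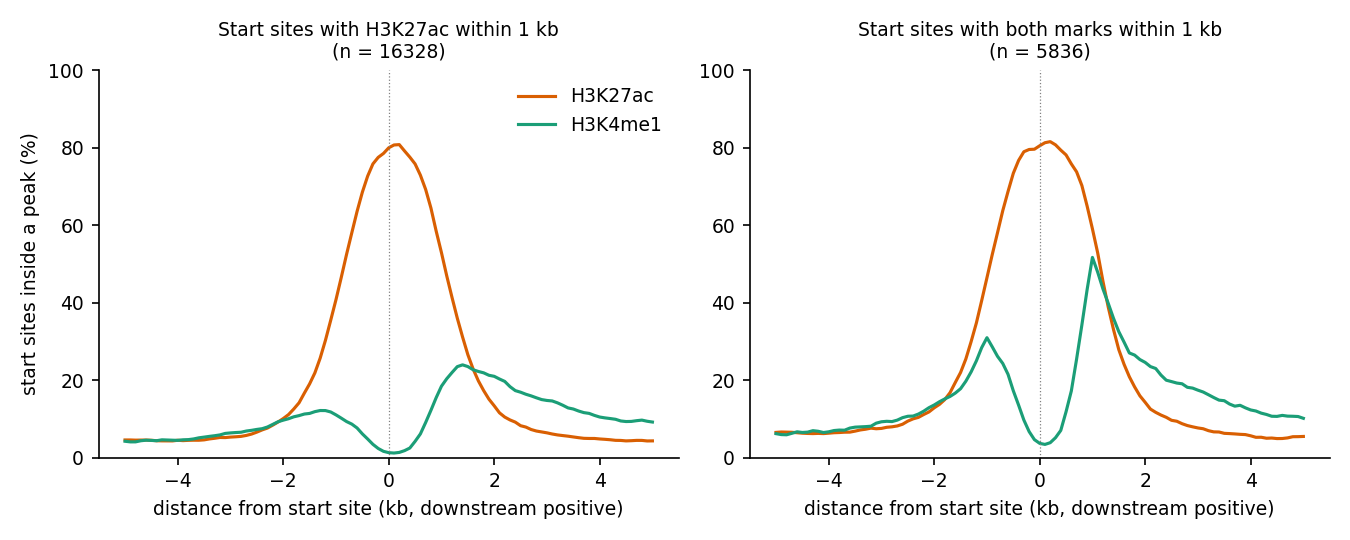
Percentage of Runx1-het start sites that lie inside an H3K27ac or H3K4me1 peak (y axis) by distance from the start site in kb (x axis), for start sites with H3K27ac within 1 kb (left) and with both marks within 1 kb (right). H3K4me1 is near 0 at the start, at 1.34% on the left, and higher downstream (24.0%) than upstream (12.2%).

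The strongest regions of each class were as follows, by fold enrichment within the list of the mark. Among H3K27ac-only promoters Usp38 (89.7), Clk1, a splicing kinase gene (73.9), Coq7, for coenzyme Q synthesis (66.6), Prpf4, a spliceosome gene (62.3), and Maco1 (57.5) led. Among promoters with both marks Unk (87.3), Hlcs, the biotin ligase gene (79.9), Ranbp2, a nuclear pore gene (76.4), Cmas, for sialic acid activation (74.1), and Srgn, the proteoglycan of blood cell granules (73.8), led. All 10 regions held H3K27ac in each of the other 5 genotypes. Among H3K4me1-only promoters the strongest, in the H3K4me1 list, were near Dhx57 (14.1), Uba3 (10.5), Ankrd22 (9.84), Fam110a (9.59) and Serpinb12 (9.14), and each held H3K27ac in 1 to 3 of the other genotypes.

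Among distal regions with H3K27ac only, the strongest were 28.0 kb from Pisd (62.0), 51.0 kb from Zfp958 (59.9), 4.78 kb from Zfp869 (53.5), 34.2 kb from Mef2d (47.1) and 70.7 kb from Gm26992 (45.4). All of these but the one near Zfp869 overlapped the start of another annotated transcript, Gm43852, Gm7461, 1700113A16Rik and Jpx, the last a non-coding RNA gene that activates Xist. Of the 100 strongest distal H3K27ac-only regions 35% lay within 1 kb of such a start (26.4 to 44.7%). In 5 equal groups by fold enrichment the share was 13.1% in the strongest and 3.49% in the weakest. The corresponding values were 27%, 10.9% and 4.83% for distal regions with both marks, and 7%, 4.24% and 3.65% for distal H3K4me1-only regions. The strongest distal H3K27ac sites thus lay within 1 kb of starts of transcripts that are not protein-coding more often than the weaker ones. The part of region width in these shares was not tested.

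The strongest distal regions with both marks were nearest Anp32e (H3K27ac fold enrichment 73.7), Cpsf6 (68.7), Pan3 (68.4), Vav3 (66.6) and Chd2 (65.6). The region of Vav3, a guanine nucleotide exchange factor of blood cells, was 7347 bp wide and held 8 H3K4me1 peaks. The strongest distal H3K4me1-only region of the genotype lay in an intron of Itgb3, the integrin beta subunit of the platelet fibrinogen receptor, at chr11:104610432-104611579 (mm10), 2.43 kb past the nearest start site, with an H3K4me1 fold enrichment of 14.7. It held H3K4me1 in all 5 other genotypes and H3K27ac in Flt3-ITD/Runx1-het, NUP98-HOXD13 and Flt3-ITD/NUP98-HOXD13, but in neither Flt3-ITD nor wild type. It was followed by regions nearest Rasa3 (14.5), Fam92b (14.2), Tox (14.0) and Sap30 (12.8).

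The genes with the most distal regions included blood transcription factors and signalling genes. The counts were not scaled for gene span or number of start sites. Foxp1, a forkhead transcription factor of lymphoid development, had 73 distal H3K4me1-only regions within 50 kb of a start site. Pde4d, a cyclic AMP phosphodiesterase gene, had 55, Psd3 had 45, Sgms1, for sphingomyelin synthesis, had 40, and Ankrd11 and Runx1 had 39 each. Cd47, the antiphagocytic surface protein, and Dock10 had 38 each, and Map7 and Pik3r1, a PI3-kinase regulatory subunit, had 36 each. Regions with both marks were most numerous at Sgms1 (30), Cd47 (29), Foxp1 (27), Fam107b (26), Fchsd2 and Mbnl1 (22 each), Cdk17, Etv6 and Pik3r1 (18 each) and Baz2b (17). Etv6, an ETS repressor needed by stem cells, had 18 such regions in Runx1-het and 7 in wild type, and Cd47 had 29 and 16. Pik3r1 had 18 in Runx1-het and 26 in wild type. The counts were closer at Foxp1 (27 in Runx1-het and 28 in wild type), Sgms1 (30 and 28), Fchsd2 (22 and 21) and Cdk17 (18 in each). Distal H3K4me1-only regions numbered 16 in Runx1-het and 25 in wild type at Etv6, 38 and 45 at Cd47, and 36 and 30 at Pik3r1. The genes were picked by their Runx1-het count, which favours a higher count in that genotype. These counts come from lists of different length and have no error over mice.

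The widest regions, a ranking chosen after the values were seen, all carried both marks. They included 14.88 kb at the Evi2b promoter, 13.29 kb at Zfp36l2, 13.10 kb at Meis1, a homeodomain factor of stem cells, 11.03 kb nearest Lmo2, a bridging cofactor of blood transcription factors, and 11.0 kb at Elf1, an ETS factor. The Lmo2 stretch was assembled from 1 H3K27ac peak and 9 H3K4me1 peaks. Merging builds both-mark regions from several peaks, so a ranking by width favours that class.

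At Runx1 itself the 2 promoters were in different classes. Runx1 lies on the minus strand of chromosome 16, and its upstream promoter region (chr16:92823863-92827224) carried both marks, with an H3K27ac fold enrichment of 21.6 and an H3K4me1 fold enrichment of 7.80. The H3K4me1 peaks of that region lay more than 1 kb from the upstream start site, so the start site itself counts as H3K27ac only. Near the proximal promoter, 129.6 kb downstream, a 345 bp region (chr16:92696361-92696705) carried H3K4me1 only, at 6.91. That region held H3K4me1 in all 5 other genotypes and H3K27ac in 3 of them, not in wild type.

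Runx1 had 61 distal regions, 39 with H3K4me1 only, 17 with both marks and 5 with H3K27ac only, against 34, 12 and 19 in wild type. Over all genes these classes numbered 34696, 8626 and 6132 in Runx1-het, against 36523, 9013 and 11507 in wild type. The wild-type H3K27ac list was also longer, with 43363 peaks against 31978. The strongest distal H3K27ac of the locus was in an intron at chr16:92798123-92803478, its middle 25.3 kb downstream of the upstream start site, where a 5356 bp region carried both marks (H3K27ac 13.4, H3K4me1 5.97). A second intronic region, 18.6 kb downstream, carried both marks at 11.0 and 8.62. Both overlapped a peak of each mark in all 5 other genotypes. A haematopoietic enhancer between the 2 Runx1 promoters is known in mouse. Farther into the gene, 6 both-mark regions lay 96.8 to 115.9 kb downstream, among them one at 110.4 kb with an H3K27ac fold enrichment of 10.6. Upstream of the gene the region at 42.0 kb carried H3K27ac only (6.75), flanked at 44.0 kb by an H3K4me1-only region (7.16).

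**Figure D4:**
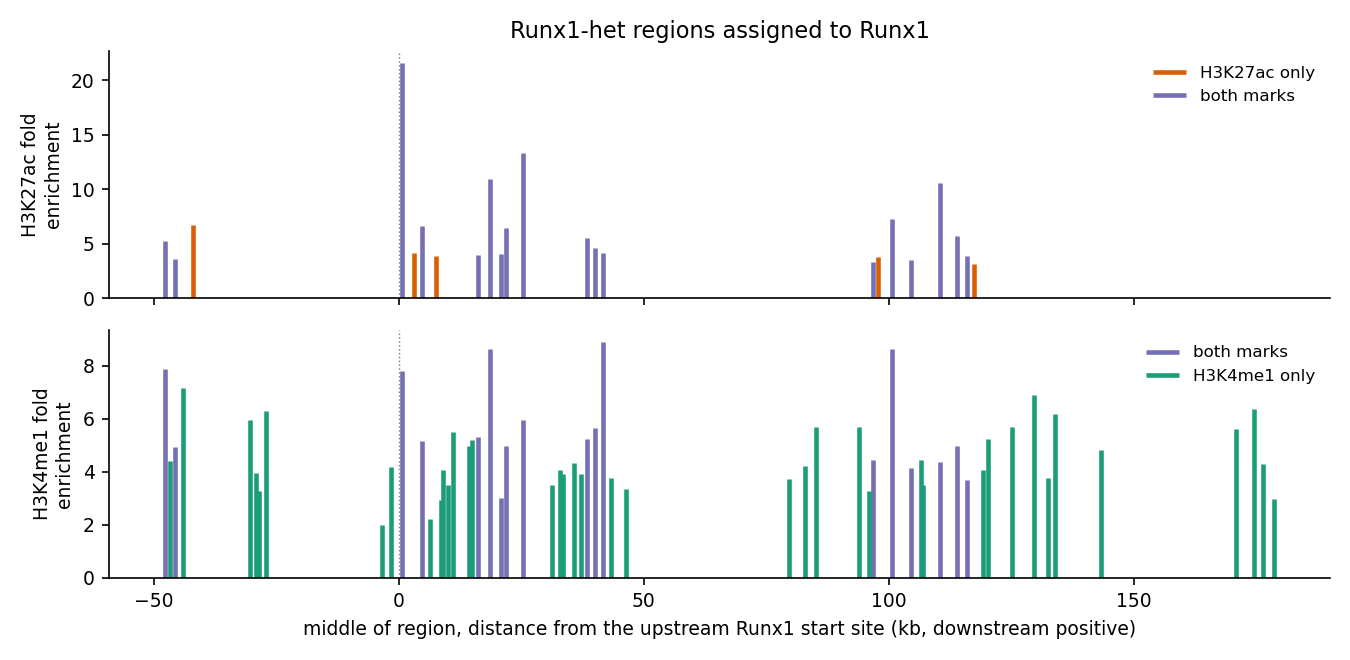
Fold enrichment of H3K27ac (top) and H3K4me1 (bottom) in the Runx1-het regions assigned to Runx1, by distance of the middle of the region from the upstream start site in kb, coloured by class. H3K27ac peaks are highest at the upstream start (21.6) and in an intron (13.4 at 25.3 kb), while H3K4me1-only regions lie on both sides of the start. Regions over 50 kb from every protein-coding start site were not assigned, which leaves the middle of the plot empty.

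Of the other RUNX genes and partners, Runx2 had 27 distal H3K4me1-only and 12 both-mark regions and Runx3 had 10 and 9. The strongest of the Runx3 regions lay 39.6 kb upstream and carried both marks (H3K27ac 20.2, H3K4me1 9.84), above the H3K27ac of its own upstream promoter (15.8, H3K27ac only). Cbfb, the partner subunit, had an H3K27ac-only promoter (8.84), 7 distal H3K4me1-only regions and 1 with both marks. The both-mark region, 17.6 kb into the gene, held H3K27ac in none of the other genotypes, as did 10.2% of all distal both-mark regions. Its H3K27ac fold enrichment was 4.25, below the median of 5.03 for that class. Vav1, whose promoter is widely used to drive blood-cell transgenes, had both marks just upstream of its start (8.37 and 16.7) and a 4668 bp both-mark region 11.6 kb into the gene (16.1 and 10.9).

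Promoter states of gene lists were set beside the labelled cell type. Of all 21827 protein-coding genes 39.4% had an H3K27ac peak at a promoter, 20.7% had an H3K4me1 peak, 16.2% had both, 23.2% had H3K27ac only, 4.51% had H3K4me1 only and 56.1% had neither. All 12 ubiquitous genes had promoter H3K27ac, and of 20 genes not expressed in blood none had a promoter peak of either mark. Of 24 stem and multipotent progenitor genes 16 had promoter H3K27ac and 2 had H3K4me1 only. Erg, an ETS factor of stem cells, stood highest (68.6), followed by Myct1 (50.1), Meis1 (47.5) and Flt3, the receptor kinase (31.3). Of 19 interferon response genes 15 had promoter H3K27ac and none had H3K4me1 only, with Usp18, Rsad2 and Ifit1 among those with both marks.

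The H3K4me1-only promoter state was found at 6 of 14 megakaryocyte genes, 5 of 16 monocyte and macrophage genes, 4 of 14 mast cell, basophil and eosinophil genes, 3 of 16 erythroid genes, 3 of 17 B lymphoid genes, 2 of 17 granulocyte genes, 2 of 14 dendritic cell genes and 2 of 17 T and NK cell genes, beside 4.51% of all genes. Promoter H3K27ac was found at 3, 5, 3, 4, 7, 5, 5 and 1 of their members, in the same order, beside 39.4% of all genes. Ccr2, a monocyte chemokine receptor, Csf1r, the macrophage growth factor receptor, and Itgam, an integrin of myeloid cells, were H3K4me1 only (5.70, 5.41 and 3.68). So were Ccr3, the eosinophil eotaxin receptor (4.61), and Rag1, the recombinase gene (6.91), whose neighbour Rag2 had both marks. Cd3e, Cd3g and Cd3d, of the T-cell receptor complex, had no promoter peak. Lck, a kinase of T cells, had both marks (H3K27ac 15.5, H3K4me1 17.1).

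**Figure D5:**
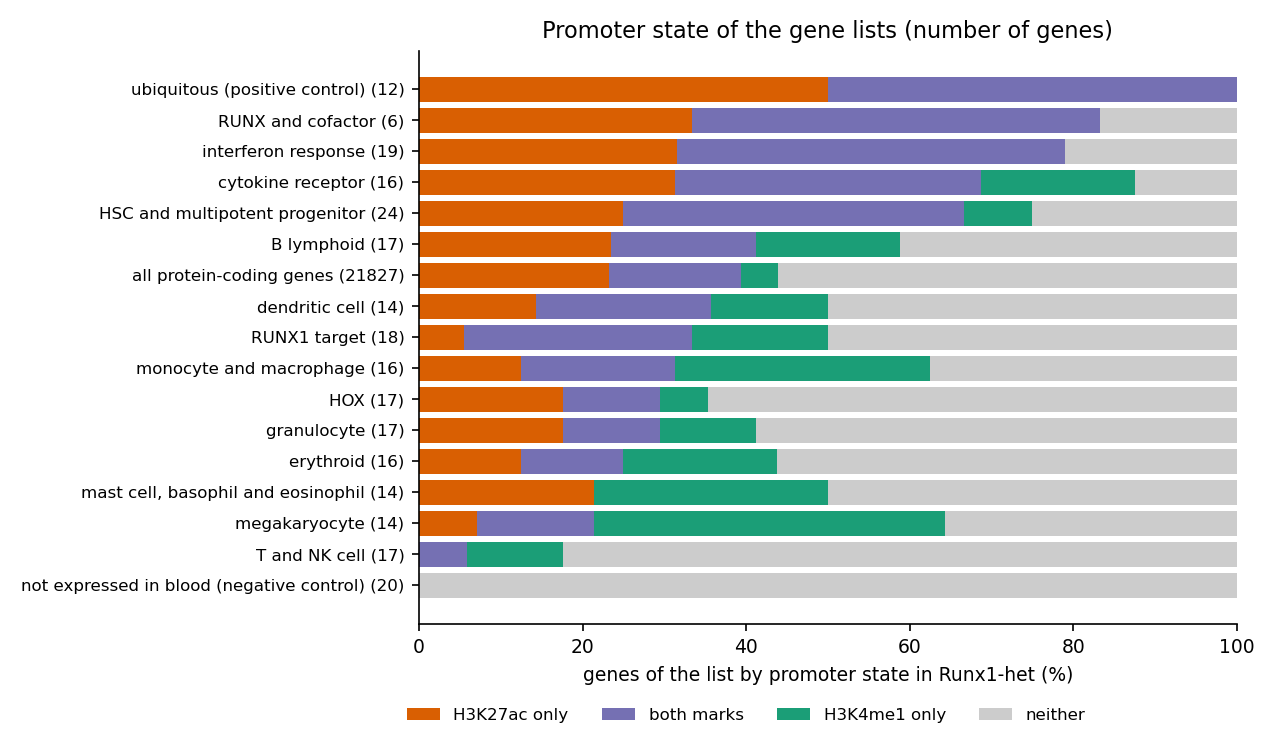
Percentage of the genes of each list (number of genes in brackets) by promoter state in Runx1-het, with all protein-coding genes as one bar. The megakaryocyte bar has the widest H3K4me1-only segment, 6 of 14 genes, against 4.51% of all genes.

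Distal elements were counted by list. Over all genes 17.4% of the distal regions within 50 kb had both marks and 70.2% had H3K4me1 only. Stem and progenitor genes had 333 distal regions, of which 24.6% had both marks and 61.6% H3K4me1 only, led by Mecom (49 regions), Myb (37), Hlf (32) and Meis1 (31). The RUNX and cofactor list had 160, with 25% and 65.6%. Megakaryocyte genes had 104, with 25% and 70.2%, of which Fli1, an ETS factor of the lineage, had 49, Itgb3 17, Selp 14 and Vwf 9. Monocyte genes, led by Itgam (14) and Ly86 (13), had 18.4% and 68.9%. Granulocyte genes, led by Gfi1, a zinc finger repressor (33), and Cebpa (10), had 13.2% and 69.1%. B lymphoid genes had 18.3% and 75.2%, led by Ikzf1 (38) and Bcl11a (21), while Pax5 and Ebf1 had no region at all. Mast cell, basophil and eosinophil genes had 17.9% and 76.9%, led by Ccr3 (15) and Hdc, for histamine synthesis (14). Dendritic cell genes had 22.4% and 68.4%, of which Tcf4 had 38. Erythroid genes had only 40 regions, with 35% and 55%, and Car2 had 15 of them. The T and NK list had 48, with 20.8% and 58.3%, led by Klrb1c (14) and Notch1 (11). Cytokine receptors had 147, with 23.1% and 61.2%, and known RUNX1 targets had 109, with 20.2% and 67.0%. Interferon genes had 53, with 24.5% and 64.2%, and HOX genes had 5, none with both marks. Genes not expressed in blood had 15, with 20% and 46.7%, and ubiquitous genes had 46, with 19.6% and 67.4%.

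The megakaryocyte promoters with H3K4me1 only were Pf4, Gp5, Selp, Itgb3, Ppbp and Tubb1, all genes of platelet granules, surface or cytoskeleton. In Runx1-het 6 of the 14 genes were H3K4me1 only and 3 had promoter H3K27ac. These counts were 3 and 6 in both Flt3-ITD/Runx1-het and NUP98-HOXD13, 4 and 5 in Flt3-ITD, 4 and 7 in Flt3-ITD/NUP98-HOXD13, and 3 and 7 in wild type. Of all genes in wild type 4.85% were H3K4me1 only and 39.4% had promoter H3K27ac. Promoter H3K27ac was found at 8601 of all 21827 genes in Runx1-het and 8598 in wild type. It was found at 10074 in Flt3-ITD/Runx1-het, 9865 in NUP98-HOXD13, 9383 in Flt3-ITD and 9940 in Flt3-ITD/NUP98-HOXD13. The H3K4me1-only state was found at 985, 1058, 1508, 1303, 1209 and 1067 genes, in the same order. At Pf4, 3 H3K4me1-only promoter regions had fold enrichments of 8.13, 5.94 and 6.14, and they overlapped H3K27ac in 5, 5 and 4 of the other genotypes. A 349 bp region upstream of these carried both marks (3.83 and 3.75). Gp9, a platelet glycoprotein gene, had no promoter peak in Runx1-het and both marks in the other 5 genotypes. Selp and Tubb1 had promoter H3K27ac in wild type, and Gp5, Itgb3 and Ppbp did not. With every list shortened to the shortest of its mark, however, 3 of the 14 had promoter H3K27ac in Runx1-het and 3 in wild type. With −log10 q of at least 5 both had 2, and with promoters drawn at 2 kb Runx1-het had 6 and wild type 7, so the size of the difference depends on the list length, the weak peaks and the promoter distance. Gata2, a stem cell zinc finger factor, had no promoter peak in Runx1-het, against H3K27ac only in wild type, while a 2763 bp region 8.74 kb into the gene carried both marks (7.41 and 4.96) and overlapped a peak of each mark in all 5 other genotypes.

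Against the other genotypes, Runx1-het stood between wild type and the remaining mutants in the share of distal H3K27ac regions with H3K4me1. That share was 57.2% in Runx1-het, 64.4% in Flt3-ITD/Runx1-het, 67.6% in Flt3-ITD, 68.4% in NUP98-HOXD13, 71.7% in Flt3-ITD/NUP98-HOXD13 and 42.5% in wild type. With lists of equal length it was 57.2%, 62.1%, 65.1%, 65.2%, 66.9% and 50.6%. Distal H3K27ac peaks were wider in Runx1-het (median 647 bp) than in wild type (340 bp). The median width of distal H3K4me1 peaks was 430 bp in Runx1-het and 394 bp in wild type, and the part of either width in the shares was not tested. With the full lists, the share of distal H3K27ac summits inside an H3K4me1 peak was 41.5% in Runx1-het (40.9 to 42.1%) and 32.6% in wild type (32.1 to 33.2%). At promoters the share of H3K27ac regions with H3K4me1 was 40.6% in Runx1-het and 26.5% in wild type. The promoter summits, a different set from the promoter regions, gave 7.05% (6.52 to 7.62%) and 6.66% (6.20 to 7.16%), intervals that overlap. The share of distal H3K4me1 regions with H3K27ac was 20.3% in Runx1-het and 20.1% in wild type, and it lay between 19.5% and 21.1% in all 6 genotypes with the full lists. With lists of equal length it was 20.3% in Runx1-het and 16.6% in wild type, and it lay between 21.2% and 23.5% in the other 4 genotypes. Distal H3K4me1 summits lay inside an H3K27ac peak in 23.0% of cases in Runx1-het (22.7 to 23.3%) and 17.4% in wild type (17.2 to 17.7%), with the full lists.

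The state of each region was then followed between genotypes. Of the Runx1-het distal regions with both marks, 55.1% had both in wild type, 23.9% had H3K4me1 only, 10.3% had H3K27ac only and 10.6% had neither. Of the wild-type distal regions with both marks, 56.6% had both in Runx1-het, 22.1% had H3K4me1 only, 9.71% had H3K27ac only and 11.6% had neither. In Flt3-ITD/Runx1-het 64.2% of the Runx1-het distal both-mark regions had both marks and 20.0% had H3K4me1 only.

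Distal H3K4me1-only regions held H3K27ac in 13.7% of cases in Flt3-ITD/Runx1-het, 14.0% in Flt3-ITD, 9.55% in NUP98-HOXD13, 14.1% in Flt3-ITD/NUP98-HOXD13 and 10.3% in wild type. In 68.0% of them (33112 of 48695) no other genotype had H3K27ac, and in 1.33% all 5 did. Distal both-mark regions had H3K27ac in all 5 other genotypes in 46.0% of cases and H3K4me1 in all 5 in 61.5%. Promoter H3K27ac was more widely shared, with H3K27ac in all 5 others at 77.3% of H3K27ac-only and 87.4% of both-mark promoter regions. By contrast 40.5% of distal H3K27ac-only regions had H3K27ac in no other genotype. The median gap of distal H3K4me1-only regions to the nearest H3K27ac peak was 4.90 kb, and 50.4% lay within 5 kb of one.

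The X chromosome departed from the autosomes. It holds 948 of the 21827 protein-coding genes (4.34%) but 1.42% of the Runx1-het H3K27ac peaks and 0.607% of the H3K4me1 peaks. Of 253 X promoter H3K27ac regions 14 held H3K4me1, or 5.53% (3.32 to 9.07%), against 41.7% of 8909 autosomal ones (40.6 to 42.7%). Of 199 distal X H3K27ac regions 27.1% held H3K4me1 (21.4 to 33.7%), against 57.4% of 21540 autosomal ones. The X share at promoters was 4.73% in Flt3-ITD/Runx1-het, 10.7% in Flt3-ITD, 5.21% in NUP98-HOXD13, 12.2% in Flt3-ITD/NUP98-HOXD13 and 4.51% in wild type, below the autosomal share in every genotype.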

How the data were processed

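H3K27ac and H3K4me1 were mapped by ChIPmentation in 6 genotypes, and the 12 deposited peak lists, 1 per genotype and mark, were used. Groups came from the labels, with 3 samples per mark for Runx1-het. The submitters' processing notes name alignment to mm10 (GRCm38) by BWA and peak calling by MACS2; no version is stated. The authors deposited for each peak a score, a ratio (fold enrichment over control), the −log10 p and −log10 q, and a summit position. The score was not used further, and −log10 p ranked peaks when lists were shortened. Each list pools the samples of its group, so no replicate test was possible. Neither read depth nor a threshold on the deposited peaks is stated. Peak names run to higher numbers than the list lengths, which are 45.3% (H3K27ac) and 52.0% (H3K4me1) of the last number for Runx1-het.

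Peaks were merged at 1 bp, and genes and 41409 start sites (position and strand) were taken from protein-coding transcripts of GENCODE mouse release 21 (basic set). Distal regions went to the nearest start site within 50 kb. A gene's promoter state used peaks within 1 kb of any of its start sites. The genotype comparison is of lists, with no test. Named genes are those of the 5 strongest regions per class, the 4 members of each list that had the most distal regions, Runx1, Runx2, Runx3, Cbfb and Vav1, and the 10 genes with the most distal regions with H3K4me1 only and with both marks. Other genes, among them those named for their promoter state or width, were chosen after their values were seen. Some genes the rule covers are not reported here. The region classes and the 16 gene lists were chosen with earlier results of these data known. Classification was tested on simulated peaks. Alternatives were shorter lists, a −log10 q limit, other merging, overlap and promoter distances, and autosomes only. The analysis used Python 3.11.15, pandas 2.3.3 and scipy 1.17.1.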

Additional observations from a re-analysis of the deposited data

How the results depend on the processing

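Of 42 recomputed class counts 33 stayed within 1.5 times the reported count and none of the comparisons has a test. The single-mark counts cannot change when both marks must share 200 bp, so they are among the 33 by construction. Keeping autosomes only removes few peaks, as X holds 1.42% of the H3K27ac and 0.607% of the H3K4me1 peaks. With the H3K4me1 list shortened to the length of the H3K27ac list, promoter both-mark and H3K4me1-only regions numbered 2251 and 833 and distal H3K4me1-only regions 18025. With −log10 q of at least 5 they numbered 1744, 673 and 14568, and distal both-mark regions 5501. Merging peaks up to 500 bp apart gave 3463 promoter H3K27ac-only regions, and a 2 kb promoter gave 5609 promoter H3K4me1-only regions.

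The share of promoter H3K27ac regions with H3K4me1 was 24.6% with the shortened H3K4me1 list, 21.8% with −log10 q of at least 5, 56.9% with 500 bp merging, 35.6% with 200 bp shared, 42.4% at 2 kb, 36.6% by region middle and 41.7% on autosomes. The distal share was 39.2%, 43.1%, 62.3% and 52.4% under the first 4 of these and 57.8% by region middle. Distal H3K27ac regions held H3K4me1 more often than promoter ones under each of these settings. The share of distal H3K4me1-only regions with H3K27ac in another genotype, with lists shortened and with 200 bp overlap, was 9.44% and 10.0% in Flt3-ITD/Runx1-het, 11.97% and 10.9% in Flt3-ITD, 8.07% and 6.74% in NUP98-HOXD13, 13.1% and 11.1% for Flt3-ITD/NUP98-HOXD13, and 6.94% and 6.10% in wild type.

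With lists of equal length the promoter share by genotype was 33.1% in Flt3-ITD/Runx1-het, 45.8% in Flt3-ITD, 37.4% in NUP98-HOXD13, 50.3% for Flt3-ITD/NUP98-HOXD13 and 28.3% in wild type, and the distal share 62.1%, 65.1%, 65.2%, 66.9% and 50.6%. At promoters Runx1-het, at 40.6%, then lay above Flt3-ITD/Runx1-het and NUP98-HOXD13 and no longer below them. At 100 kb in place of 50 kb, 28 of 32 gene list counts stayed within 1.5 times; the others were 66 both-mark regions for RUNX and cofactors, 8 both-mark and 13 H3K4me1-only regions for genes not expressed in blood, and 16 both-mark regions for ubiquitous genes. Chosen after seeing the data, megakaryocyte promoters with H3K27ac numbered 6 in Runx1-het at 2 kb, and in wild type 3 with shortened lists and 2 with −log10 q of at least 5. The share of promoter H3K27ac regions with H3K4me1 was 1.83% on X and 22.4% on autosomes with −log10 q of at least 5, and 43.3% on autosomes at 2 kb. The causes were not tested.

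No paired analysis was possible because each list pools its samples, and for the same reason no replicate was left out. Read depth is unknown, a missing peak does not show that a mark is absent, and longer or deeper lists hold more weak peaks. The sorted cells are a mixture, so both marks in 1 region need not lie in the same cell, and fewer cells of a type cannot be told apart from less mark per cell.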
